A study of Mus musculus with 4 samples.

Results

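The 40 genes described here are antiviral interferon-stimulated genes, a list of antiviral effectors, nucleic acid sensors and ubiquitin-like interferon targets that leaves out the guanylate-binding, immunity-related GTPase, PYHIN and interferon regulatory factor families. They were taken by gene name from a deposited table of 53465 genes, in which each of the 40 names stood on 1 row. The table came from RNA sequencing of mouse splenic CD8+ T cells activated on anti-CD3/CD28 beads, a substitute for antigen and costimulation, over 24 h. There were 4 libraries, 2 labelled PP2Cm KO and 2 labelled WT, and each pair is described as biological replicates, so each n below is 2 per label. Libraries of both labels came from cells activated in the same way, and no source used here gives the strain, age or sex of the mice or the design of the deleted allele. Ppm1k encodes PP2Cm, a phosphatase of mitochondria that switches on the breakdown of branched-chain amino acids.

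The labels conflict, and every direction below depends on which of them is followed. The title and genotype field of each sample name 1 genotype, while its description code, which heads its column in the table, reads as the opposite genotype. The groups follow title and genotype field and are written as labelled KO and labelled WT. If the codes were the correct ones, each direction given here would be reversed. Ppm1k had 157 and 206 counts in the libraries labelled KO, against 102 and 94 in those labelled WT, so the targeted gene was not lower in the libraries labelled KO. Its log2 fold change was 0.97 (SE 0.23), with an adjusted p of 0.186 by edgeR. A total per gene cannot tell whether reads fell in a deleted part of it. The libraries labelled KO held 13394074 and 14199020 counts and those labelled WT 12967251 and 17316284. Levels are given as CPM, counts per 1000000 counted reads. A gene with a count of 0 could, by counting error alone, stand at up to 0.224 and 0.211 CPM labelled KO, and 0.231 and 0.173 CPM labelled WT. Cd8a, which encodes a chain of the CD8 coreceptor, had 547 and 511 CPM in the libraries labelled KO and 542 and 523 CPM in those labelled WT. All 9 markers of CD8 T cells had counts in these libraries, and their sum was 2732 and 2596 CPM labelled KO against 3158 and 2850.3 CPM labelled WT. Of the 9, 8 had a negative log2 fold change and 5 lay lower in the libraries labelled KO without overlap, with a median of −0.18, and none passed by edgeR or DESeq2. At an unadjusted p under 0.05 by edgeR 3 were lower and 0 higher. Among all genes tested 51.9% were negative and 23.3% lay lower without overlap. At that unadjusted p 7.23% of them were lower and 5.7% higher. Without Cd8a the sum was 2185 and 2085 CPM labelled KO against 2616 and 2327 CPM labelled WT, so most CD8 markers stood on the same side as most members, and their part in the results was not tested.

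Type I interferons bind the receptor chains Ifnar1 and Ifnar2 and act through the kinases Jak1 and Tyk2 on ISGF3, a transcription factor complex that contains Irf9. ISGF3 binds the interferon-stimulated response element (ISRE) in promoters of genes such as those listed here. Their products recognise viral RNA, degrade it or block its translation, tag proteins with the ubiquitin-like ISG15, or hold virions at the cell surface. T cells keep a low level of many of these genes without infection, and interferon given around the time of priming acts on CD8+ T cell expansion and survival.

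Promoters are shown because the ISRE is the sequence by which members of this list are known to answer interferon. RefSeq promoters on GRCm38.p6, each of 300 bases from 250 before to 50 after a transcript start, were found for 27 members. The core of the ISRE, taken as GAAA, any pair of bases and GAAA, was searched on both strands with overlapping matches allowed, and it stood in at least 1 promoter of 14 of these 27, or 51.9% of the genes, against 3.99% of all 27025 genes with a promoter. A second pattern, TTCNNNGAA, the core of the gamma-activated site (GAS), stood in 7 of the 27, or 25.9%, against 9.55% of all genes. A match is a description of letters and does not show binding. The 6 promoters printed 5′ to 3′ on the strand of the gene, in lower case, hold the ISRE letters in capitals, which read TTTC, any pair of bases and TTTC where the match is on the other strand. Those of Isg15 (chr4:156200769-156201068, minus strand), Ifit1 (chr19:34640639-34640938, plus strand), Oas3 (chr5:120777610-120777909, minus strand) and Phf11b (chr14:59341281-59341580, minus strand) belong to genes without overlap between the labels, lower in the libraries labelled KO. Those of Ifit3 (chr19:34583279-34583578, plus strand) and Bst2 (chr8:71537423-71537722, minus strand) belong to genes whose levels overlapped between the labels.

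Isg15: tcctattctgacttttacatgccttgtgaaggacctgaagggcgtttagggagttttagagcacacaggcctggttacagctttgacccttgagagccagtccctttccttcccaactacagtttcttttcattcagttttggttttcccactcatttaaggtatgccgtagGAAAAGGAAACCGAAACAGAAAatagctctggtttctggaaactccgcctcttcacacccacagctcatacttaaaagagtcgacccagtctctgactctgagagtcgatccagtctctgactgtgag
Ifit1: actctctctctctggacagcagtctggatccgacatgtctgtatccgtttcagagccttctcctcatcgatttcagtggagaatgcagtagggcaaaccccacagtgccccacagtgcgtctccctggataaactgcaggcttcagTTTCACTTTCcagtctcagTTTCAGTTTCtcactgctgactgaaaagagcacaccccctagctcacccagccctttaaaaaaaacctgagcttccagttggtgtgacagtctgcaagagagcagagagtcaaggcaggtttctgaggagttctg
Oas3: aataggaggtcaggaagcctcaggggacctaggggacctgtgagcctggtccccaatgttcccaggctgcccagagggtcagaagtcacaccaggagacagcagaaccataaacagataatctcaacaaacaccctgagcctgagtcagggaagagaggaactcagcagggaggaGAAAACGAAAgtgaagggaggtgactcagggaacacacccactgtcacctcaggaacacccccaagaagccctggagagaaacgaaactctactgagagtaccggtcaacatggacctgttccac
Phf11b: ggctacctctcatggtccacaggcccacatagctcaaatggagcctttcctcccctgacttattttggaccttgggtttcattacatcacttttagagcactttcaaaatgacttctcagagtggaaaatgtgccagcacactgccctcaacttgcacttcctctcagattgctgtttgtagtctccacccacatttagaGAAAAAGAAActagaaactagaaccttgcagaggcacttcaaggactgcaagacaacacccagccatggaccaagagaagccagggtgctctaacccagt
Ifit3: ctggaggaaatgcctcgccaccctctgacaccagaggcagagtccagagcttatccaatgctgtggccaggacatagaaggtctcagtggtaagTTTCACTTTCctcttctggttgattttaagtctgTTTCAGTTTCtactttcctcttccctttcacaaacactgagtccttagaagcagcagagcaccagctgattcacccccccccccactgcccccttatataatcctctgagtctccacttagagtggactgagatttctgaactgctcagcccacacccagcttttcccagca
Bst2: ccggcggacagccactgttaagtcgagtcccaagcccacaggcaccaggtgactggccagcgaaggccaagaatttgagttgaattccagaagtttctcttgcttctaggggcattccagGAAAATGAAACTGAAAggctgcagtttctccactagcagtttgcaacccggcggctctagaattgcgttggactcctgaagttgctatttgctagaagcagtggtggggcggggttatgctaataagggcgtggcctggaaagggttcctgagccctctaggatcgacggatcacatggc

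Isg15 held 3 overlapping matches between 78 and 66 bases before the start, Ifit1 held 2 that began 104 and 85 bases before it, and Oas3 and Phf11b held 1 each, 75 and 50 bases before it. Ifit3 held 2, which began 156 and 122 bases before the start, and Bst2 held 2 overlapping ones 130 and 124 bases before it. Of the 14 members with the letters, 10 lay lower without overlap in the libraries labelled KO, with a median log2 fold change of −0.52. Of the 13 members with a promoter but without them, 6 did, and the median was −0.44 over those tested. Among all genes tested 23.3% lay lower without overlap, and the median was −0.012. The difference between the sets was not tested. Each set held members lower in the libraries labelled KO and members whose labels overlapped.

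Most members stood lower in the libraries labelled KO than in those labelled WT, by a median of 1.44-fold. Phf11b, Sp100, Oas3 and Ifi27l2a had the smallest p values, all of them lower in the libraries labelled KO, whereas Oas2 and Herc6 were higher there. Bst2, the highest member per length on the deposited FPKM, overlapped between the labels, at 118 ± 10.98 CPM labelled KO and 117 ± 12.6 CPM labelled WT (SD, n = 2 each). No member passed an adjusted p of 0.05 over all genes by the quasi-likelihood test of edgeR, and the lowest adjusted p was 0.0502, for Phf11b. Over all 13528 genes tested 28, or 0.207%, passed, with 0.103% lower and 0.103% higher in the libraries labelled KO. Before adjustment, 24 members had a p under 0.05 and a lower level in the libraries labelled KO, and 2, Oas2 and Herc6, a higher one. The same held for 7.23% and 5.7% of all genes tested. DESeq2 called 6 members lower and 0 higher, against 1.37% and 0.665% of all genes. The 6 were Usp18, Oas3, Ifi27l2a, Parp9, Sp100 and Phf11b.

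Of the 39 members tested, 31 had a negative log2 fold change and 8 a positive one, where 51.9% of all genes tested were negative. The labels did not overlap in 31 members, of which 28 were lower and 3 higher in the libraries labelled KO, and they overlapped in 8. Among all genes tested, 23.3% lay under and 21.5% above. The median log2 fold change was −0.53 for the members and −0.012 for all genes tested. These counts describe the list and are no test of it, since the members were chosen with earlier results of these data known. Ifi44 did not pass the filter on low counts, with 3 and 0 counts in the libraries labelled KO and 2 and 15 in those labelled WT. Rsad2 and Mx2 passed it through the libraries labelled WT alone, since they were under its minimum in both libraries labelled KO. Over the 37 members above the minimum of 0.725 CPM in all 4 libraries, 29 were negative, 26 were lower and 3 higher in the libraries labelled KO without overlap, and the median was −0.51.

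**Figure D1:**
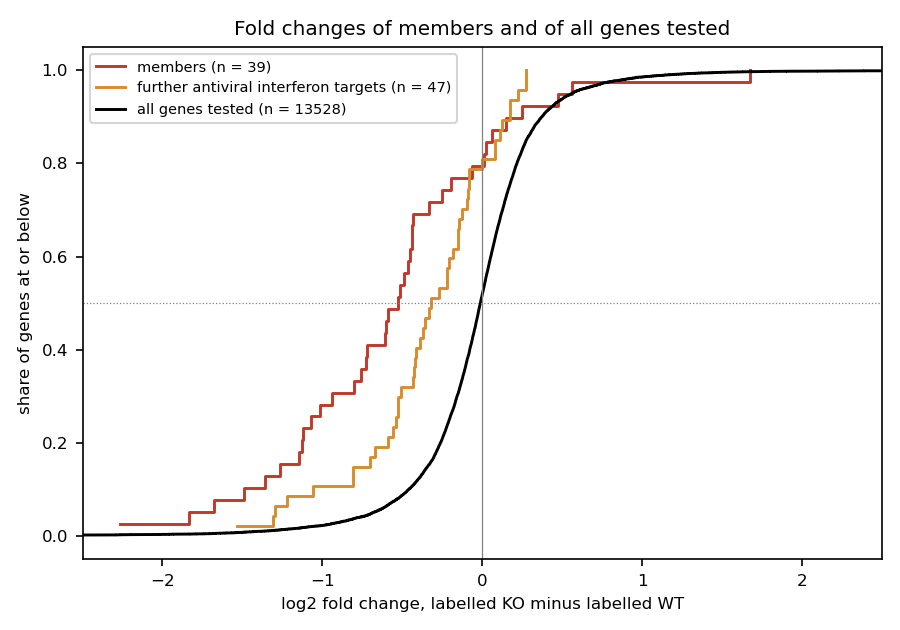
Share of genes (vertical axis) at or below each log2 fold change, labelled KO minus labelled WT (horizontal axis), for the 39 members tested, for 47 further antiviral interferon targets and for all 13528 genes tested. The members' curve crosses the middle line at −0.53 and that of all genes at −0.012.

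Members differed widely in abundance. On the deposited FPKM, which divide by gene length, mean levels over the 4 libraries ran from 0.0414 for Ifi44 to 104 for Bst2, with a median of 3.35. Bst2 was followed by Ifi27l2a at 44.8, Ly6a at 30.5, Trim25 at 24.5 and Ly6e at 23.3 FPKM. Rsad2, Mx2, Oas2 and Ifih1, at 0.0964, 0.161, 0.224 and 0.37 FPKM, were the lowest after Ifi44. The levels per library below are CPM scaled by the trimmed mean of M values (TMM), and fold changes are labelled KO over or minus labelled WT from the fit across all genes.

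**Figure D2:**
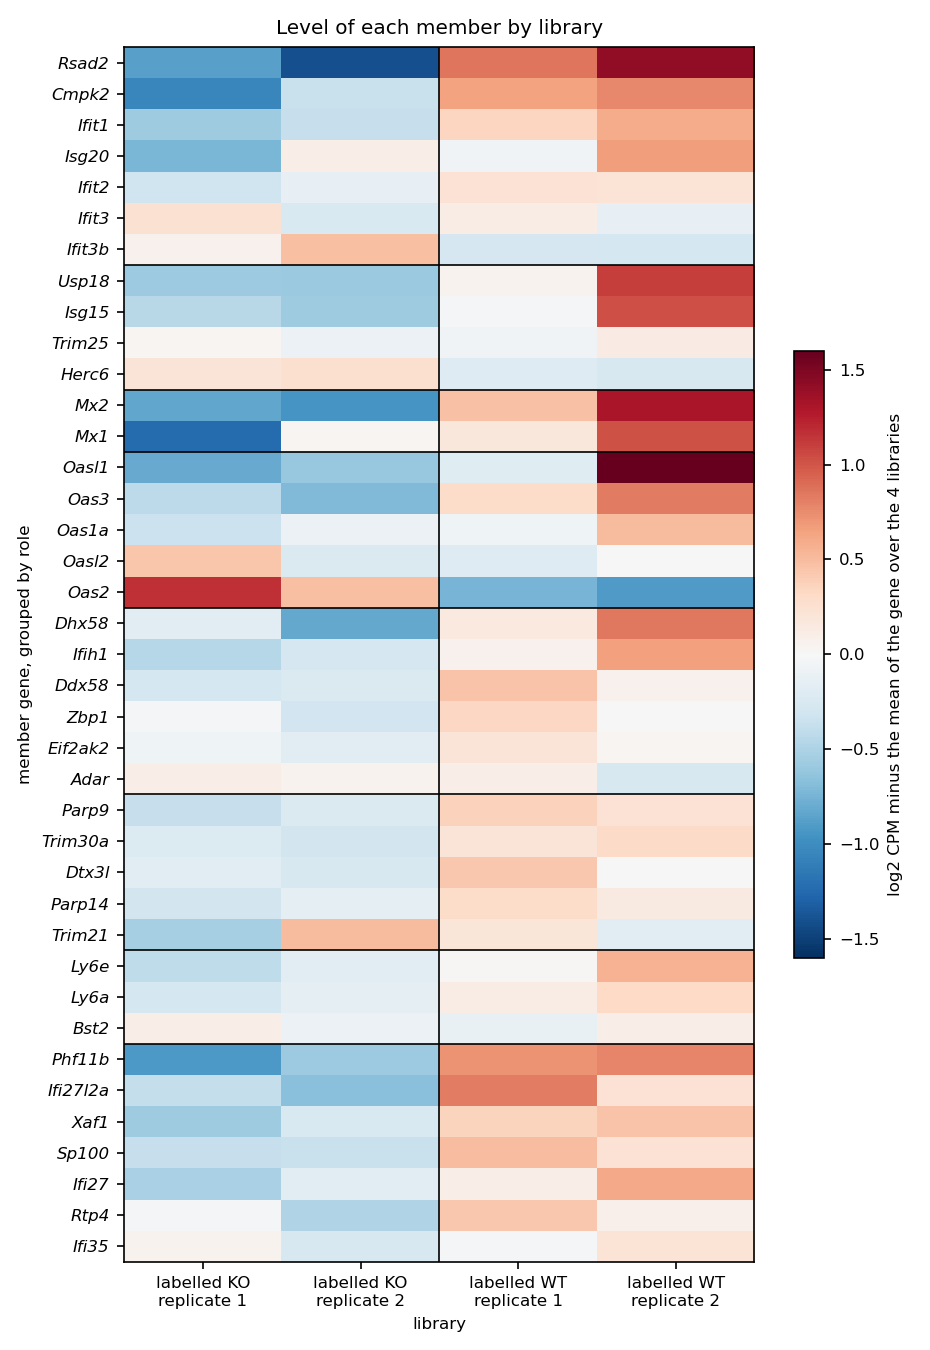
Level of each of the 39 tested members (rows, grouped by role and ordered by fold change within a role) in each library (columns), as log2 CPM minus the mean of the gene over the 4 libraries. In 28 rows both columns labelled KO are below both columns labelled WT. Rows such as Usp18, Isg15 and Oasl1 are highest in labelled WT replicate 2 alone.

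The first role is that of the IFIT proteins, which bind viral RNA through tetratricopeptide repeats, with the exonuclease Isg20, viperin (Rsad2), which makes a chain-terminating nucleotide, and its neighbour Cmpk2, a mitochondrial nucleotide kinase. Of these 7 genes 5 were negative, with a median log2 fold change of −0.61. Ifit1 had 3.53 and 4.08 CPM in the libraries labelled KO and 6.68 and 7.95 CPM in those labelled WT, 1.92-fold lower. Its labels did not overlap, and its log2 fold change was −0.94 (SE 0.24; edgeR adjusted p = 0.199). Ifit2 had 19.5 and 22.2 CPM labelled KO against 28.7 and 28.3 CPM labelled WT, also without overlap and 1.37-fold lower. Ifit3 overlapped, with 10.98 and 7.82 CPM labelled KO and 10.1 and 8.48 CPM labelled WT, and the 95% limits of its log2 fold change were −0.53 and 0.57. Its copy Ifit3b was higher in both libraries labelled KO, at 1.35 and 1.80 CPM against 1.08 and 1.06 CPM labelled WT, on 14 to 26 counts a library. Ifit2, Ifit3, Ifit3b and Ifit1 lie in this order within 1 cluster on chromosome 19, from 34550694 to 34650009 in GRCm38.

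Rsad2 and Cmpk2 lie 12.8 kb apart on chromosome 12. Rsad2 had 4 and 3 counts in the libraries labelled KO, against 13 and 25 in those labelled WT. Cmpk2 stood at 0.902 and 1.45 CPM labelled KO against 2.92 and 3.18 CPM labelled WT, 2.57-fold lower (log2 fold change −1.36, SE 0.37; edgeR adjusted p = 0.226). Both genes were lower in both libraries labelled KO, at levels where few counts stand behind each value. Isg20 overlapped between the labels, at 1.20 and 2.15 CPM labelled KO and 1.92 and 3.18 CPM labelled WT.

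The second role is the ISG15 system, in which Isg15 encodes the modifier, Herc6 its main ligase in mice, and Usp18 the protease that removes it and also restrains signalling at the interferon receptor. The pair of modifier and protease stood apart from the ligase. Isg15 had 2.63 and 2.42 CPM in the libraries labelled KO, against 3.53 and 7.36 CPM in those labelled WT. Usp18 had 15.9 and 15.7 CPM labelled KO, against 24.7 and 51.1 CPM labelled WT, 2.41-fold lower (log2 fold change −1.27, SE 0.32; edgeR adjusted p = 0.201, DESeq2 adjusted p = 0.0116). For both genes the libraries labelled KO were close to each other, and labelled WT replicate 2 was over 1.5 times labelled WT replicate 1. Herc6 went the other way, with 11.4 and 11.8 CPM labelled KO against 8.53 and 8.24 CPM labelled WT, 1.39-fold higher (log2 fold change 0.47, SE 0.18; edgeR adjusted p = 0.334). Trim25, a ubiquitin ligase that acts on the sensor RIG-I, overlapped, at 146 and 133 CPM labelled KO and 137 and 156 CPM labelled WT.

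Of 5 partners of members outside the list, 3 stood above labelled WT without overlap in the libraries labelled KO, and 1 stood below. Among all genes tested 21.5% lay above and 23.3% below. Uba7, the activating enzyme of ISG15, stood at 17.3 and 17.7 CPM labelled KO against 26.3 and 26.5 CPM labelled WT. Ube2l6, its conjugating enzyme, stood at 23.6 and 16.7 CPM labelled KO against 10.9 and 10.3 CPM labelled WT, 1.90-fold higher. Neither passed over all genes by edgeR, with adjusted p values of 0.196 and 0.166. DESeq2 called 1 of the 5, higher in the libraries labelled KO, against 0.665% of all genes.

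Dynamin-like MX GTPases block the entry or replication of several viruses. Mx1 had 1.28 and 3.05 CPM in the libraries labelled KO and 3.38 and 6.06 CPM in those labelled WT. Labelled KO replicate 2 and labelled WT replicate 1 were close to each other, and its log2 fold change was −1.13 (SE 0.47; edgeR adjusted p = 0.385). Mx2, annotated in the table as a polymorphic pseudogene, had 5 and 5 counts labelled KO against 12 and 28 labelled WT. Some inbred strains carry defective Mx genes, and no source used here names the strain.

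The OAS family senses double-stranded RNA and, in its active members, makes oligoadenylates, second messengers that lead to the decay of RNA. It held the widest spread of directions in the list. Oas3 had 14.4 and 11.8 CPM in the libraries labelled KO, against 23.6 and 34.4 CPM in those labelled WT, 2.21-fold lower (log2 fold change −1.14, SE 0.23; edgeR adjusted p = 0.124, DESeq2 adjusted p = 0.00399). Both libraries labelled KO were under both labelled WT. Oas2, which lies 3.24 kb from Oas3 on chromosome 5, stood at 3.46 and 2.15 CPM labelled KO against 0.922 and 0.824 CPM labelled WT. Its labels did not overlap either, in the opposite direction, and it was 3.19-fold higher (log2 fold change 1.67, SE 0.41; edgeR adjusted p = 0.189). The 95% limits were −1.68 and −0.61 for Oas3 and 0.70 and 2.65 for Oas2. Oas2 rests on 46 and 31 counts labelled KO against 12 and 14 labelled WT.

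Oas1a had 2.86 and 3.39 CPM labelled KO and 3.46 and 5.12 CPM labelled WT. Oasl1, which in mice limits interferon production through Irf7, had 1.20 and 1.38 CPM labelled KO against 1.84 and 6.36 CPM labelled WT. Its log2 fold change of −1.68 (SE 0.59) came to −0.51 when labelled WT replicate 2 was left out, and to −2.28 (edgeR adjusted p = 0.00906) when labelled WT replicate 1 was. Its neighbour Oasl2, 11005 bases away, overlapped, at 6.32 and 3.95 CPM labelled KO and 3.995 and 4.59 CPM labelled WT.

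**Figure D3:**
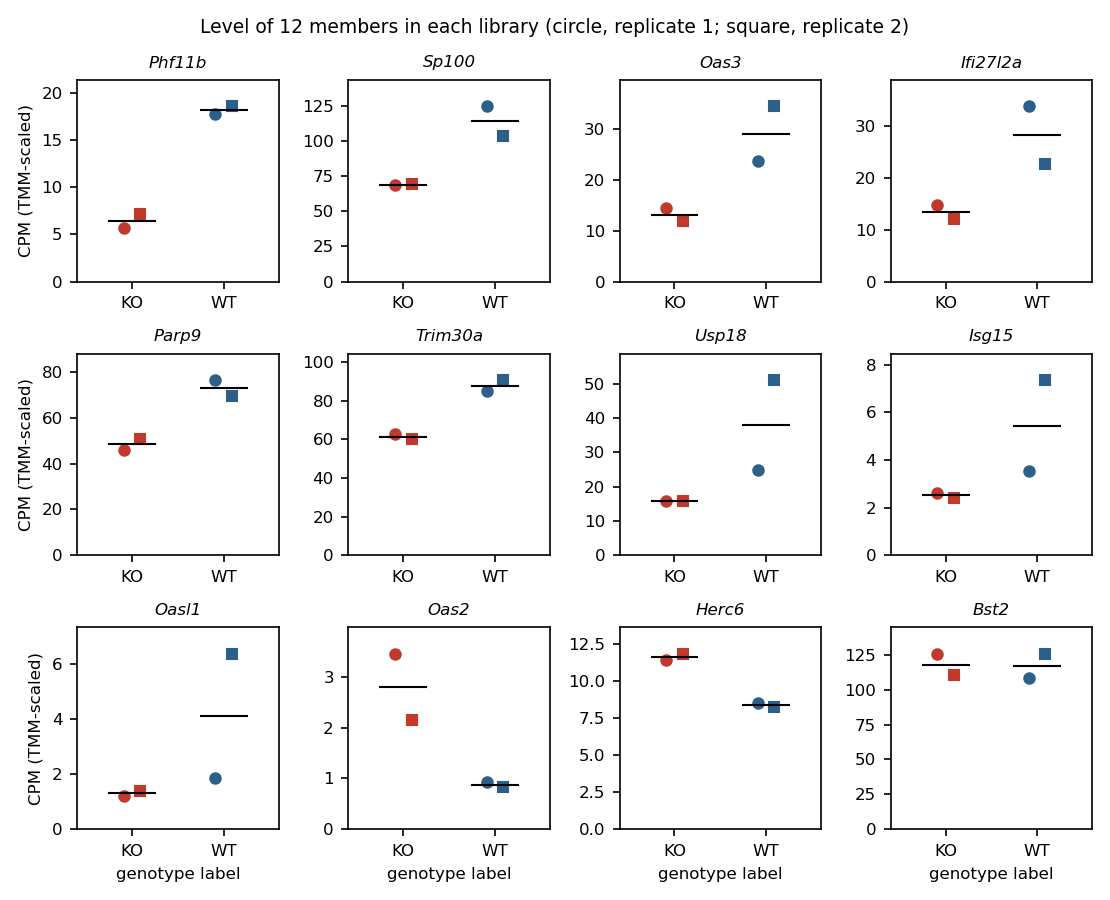
CPM scaled by TMM (vertical axes, from 0) of 12 members in each library, with labelled KO left of labelled WT, circles for replicate 1, squares for replicate 2 and lines for the mean of each label. Phf11b, Sp100, Oas3, Parp9 and Trim30a lie lower in both libraries labelled KO, Oas2 and Herc6 lie higher, Bst2 overlaps, and Usp18, Isg15 and Oasl1 stand highest in labelled WT replicate 2.

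Among the sensors of foreign RNA, all 3 RIG-I-like receptors were lower in both libraries labelled KO. Ddx58 (RIG-I) had 13.7 and 14.1 CPM labelled KO against 22.7 and 17.4 CPM labelled WT, 1.44-fold lower. Ifih1 (MDA5), which recognises long double-stranded RNA, had 2.93 and 3.32 CPM labelled KO against 4.23 and 6.30 CPM labelled WT. Dhx58 (LGP2), which modulates the other two, had 3.76 and 2.42 CPM labelled KO against 4.76 and 7.65 CPM labelled WT. Their log2 fold changes were −0.53, −0.76 and −1.02, with edgeR adjusted p values of 0.311, 0.36 and 0.301. The other 3 sensors or editors showed smaller differences. Eif2ak2 (PKR), the kinase that halts translation, stood at 24.8 and 23.1 CPM labelled KO against 30.2 and 26.7 CPM labelled WT. Zbp1, a sensor of Z-form nucleic acid that triggers cell death, stood at 39.9 and 32.7 CPM labelled KO against 50.9 and 40.8 CPM labelled WT. Neither overlapped between labels, though for each the highest labelled KO library stood close to the lowest labelled WT one. Adar, which edits adenosine in double-stranded RNA, overlapped, with 108 and 104 CPM labelled KO and 107 and 83.8 CPM labelled WT.

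Parp9 and Dtx3l encode an ADP-ribosyltransferase and a ubiquitin ligase that work as a complex, and with Parp14 they lie on chromosome 16 from 35832874 to 35972605. The 3 were lower in both libraries labelled KO by similar amounts. Parp9 had 46.0 and 50.7 CPM labelled KO against 76.4 and 69.5 CPM labelled WT, 1.51-fold lower (log2 fold change −0.59, SE 0.13; edgeR adjusted p = 0.162). Parp14 had 102 and 113 CPM labelled KO against 153 and 138 CPM labelled WT, 1.35-fold lower. Dtx3l had 135 and 127 CPM labelled KO against 204 and 152 CPM labelled WT, 1.36-fold lower. Parp9 and Dtx3l overlap on opposite strands and share 458 exonic bases, and no source used here says if reads were counted by strand. Trim30a, a negative regulator of NF-kappaB signalling in mice, had 62.9 and 59.9 CPM labelled KO against 84.7 and 90.6 CPM labelled WT, 1.43-fold lower (edgeR adjusted p = 0.174). Trim21, a cytosolic antibody receptor and ubiquitin ligase, overlapped, because both its lowest and its highest library were labelled KO, at 11.7 and 24.2 CPM, against 19.5 and 15.1 CPM labelled WT.

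Of the 3 surface proteins, the GPI-anchored Ly6a (Sca-1) and Ly6e, which lie 35.0 kb apart on chromosome 15, were lower in both libraries labelled KO. Ly6a had 85.9 and 93.7 CPM labelled KO against 113 and 129.5 CPM labelled WT, 1.35-fold lower. Ly6e, known to block the entry of coronaviruses, had 212 and 251 CPM labelled KO against 287 and 415 CPM labelled WT, 1.51-fold lower. Their edgeR adjusted p values were 0.238 and 0.272. Bst2 (tetherin), which holds budding virions on the membrane, overlapped, with 126 and 110.3 CPM labelled KO and 108 and 126 CPM labelled WT, and 95% limits of −0.29 and 0.32 on its log2 fold change.

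The remaining 8 members held the 2 with the smallest p values. Phf11b (ENSMUSG00000091649), a PHD finger gene on chromosome 14 from 59320964 to 59341351, had 5.71 and 7.20 CPM in the libraries labelled KO, against 17.7 and 18.5 CPM in those labelled WT. It was 2.81-fold lower, at 6.46 ± 1.05 CPM labelled KO and 18.1 ± 0.562 CPM labelled WT (SD, n = 2 each), with a log2 fold change of −1.49 (SE 0.19) and 95% limits of −1.94 and −1.03. Its edgeR adjusted p of 0.0502 fell on the far side of the threshold by little, and it was called in 5 of 9 alternatives. Sp100 (ENSMUSG00000026222), a component of nuclear bodies that silence viral genomes, stood at 68.5 and 69.2 CPM labelled KO against 125 and 104 CPM labelled WT, 1.66-fold lower (log2 fold change −0.73, SE 0.13; edgeR adjusted p = 0.0961, DESeq2 adjusted p = 0.00198).

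Ifi27l2a and Ifi27 encode small hydrophobic proteins and lie 1.93 kb apart on chromosome 12. Ifi27l2a had 14.7 and 12.04 CPM labelled KO against 33.7 and 22.6 CPM labelled WT, 2.10-fold lower (log2 fold change −1.07, SE 0.23; edgeR adjusted p = 0.154). Ifi27 had 6.77 and 8.58 CPM labelled KO against 10.4 and 14.8 CPM labelled WT, 1.65-fold lower. Neither pair overlapped between labels. Xaf1, a promoter of apoptosis that binds XIAP, had 3.31 and 4.15 CPM labelled KO against 6.30 and 6.71 CPM labelled WT, 1.74-fold lower. Rtp4, a chaperone-like protein of the receptor transporter family, had 33 and 26 counts labelled KO against 44 and 45 labelled WT. Ifi35, the partner of Nmi, overlapped, at 62.3 and 50.4 CPM labelled KO and 59.4 and 69.8 CPM labelled WT.

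**Figure D4:**
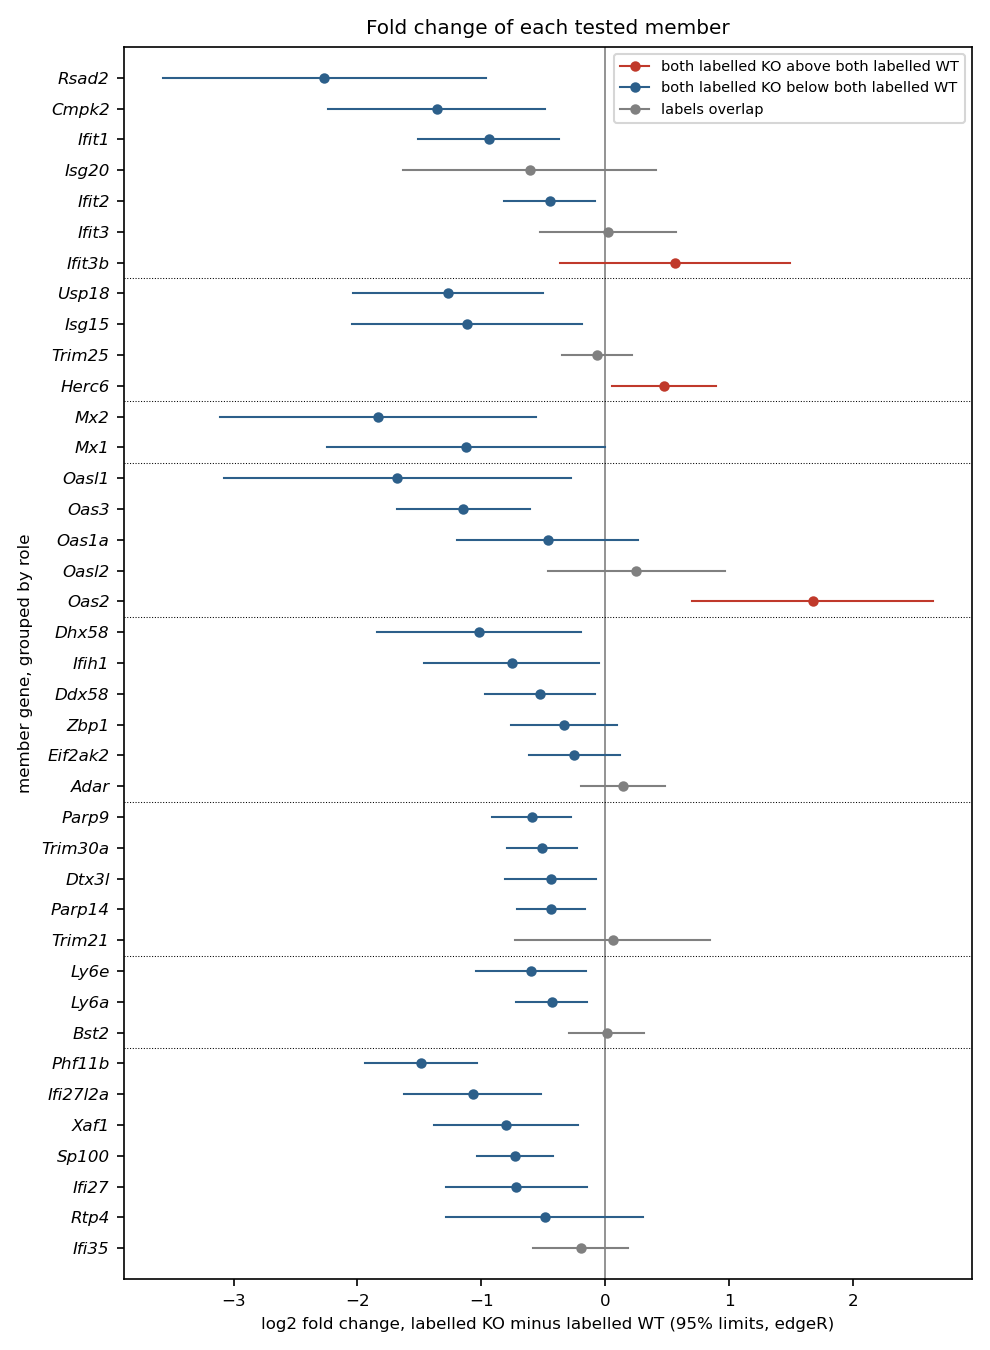
Log2 fold change, labelled KO minus labelled WT (horizontal axis), with 95% limits from edgeR (bars) for each of the 39 tested members (rows, grouped by role). Blue marks the 28 members whose libraries labelled KO both lay under those labelled WT, red the 3 that lay above (Ifit3b, Herc6 and Oas2), and grey the 8 that overlapped.

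Copies of some members limit what a count per gene can say. Of the 31-base words in the transcripts of a member, over 50% stood in transcripts of another gene for 4 members, namely Ifit3 (61.8%), Ifit3b (55.3%), Oas1a (68.8%) and Phf11b (62.9%). The partners were Ifit3b and Ifit3 for each other, Oas1g for Oas1a and mainly Phf11a for Phf11b, so reads of these genes may have been divided between copies. The Phf11 copies differed among themselves. Phf11a had 5 and 10 counts labelled KO against 17 and 21 labelled WT, whereas Phf11c had 74 and 108 counts labelled KO against 75 and 86 labelled WT. With the counts of the 4 Phf11 genes summed, the log2 fold change of the sum was −0.83, with an edgeR adjusted p of 0.162. Oas1g had 0 and 3 counts labelled KO against 14 and 10 labelled WT. In all, 12 members share exonic bases with another annotated gene, most on the opposite strand, among them Adar with Chrnb2 over 1365 bases. On the same strand Herc6 shares 1269 bases with Gm45193 and Rtp4 296 bases with Gm45338. Parp14 and Sp100 share fewer bases there.

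The 2 libraries labelled WT were not alike for a part of the list. Isg15, Isg20, Usp18, Mx1, Mx2, Oasl1 and Dhx58 were over 1.5-fold higher in labelled WT replicate 2 than in labelled WT replicate 1, by 2.08-, 1.65-, 2.07-, 1.79-, 1.79-, 3.45- and 1.61-fold, and 0 of the 39 tested members were as much lower. Among all genes tested 6.72% were over 1.5-fold higher and 7.41% over 1.5-fold lower in that comparison. Between labelled KO replicates 2 and 1, 4 members were over 1.5-fold higher and 3 lower. Labelled WT replicate 2 was the highest of the 4 libraries in 22 members, where 27.7% of all genes tested were highest there. Without that library the log2 fold change was −0.48 for Isg15, −0.65 for Usp18, −0.63 for Mx1 and −0.31 for Ly6e, against −1.12, −1.27, −1.13 and −0.60 with it. The median of the list was −0.48 without it, and 33 of 39 members were negative, against 50.1% of all genes tested in that fit. Most members that lay lower in the libraries labelled KO without overlap had labelled WT libraries within 1.5-fold of each other. Phf11b, Sp100, Parp9, Parp14, Ly6a, Trim30a, Ifit1 and Ifit2 are examples. The 3 members that lay higher without overlap, Oas2, Herc6 and Ifit3b, also had labelled WT libraries within 1.5-fold of each other.

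Markers of other spleen cells were counted beside these results. Of 13 myeloid markers all had a count in some library and all averaged under 5 CPM, and their sum was 12.1 and 10.7 CPM in the libraries labelled KO and 9.68 and 17.3 CPM in those labelled WT. In 9 of the 13 labelled WT replicate 2 was the highest library, as it was for the members named above and for 27.7% of all genes tested. That share is over genes that passed the filter on low counts, as 7 of the 13 did, and 6 of these 7 were highest there. Markers of B cells summed to 299.7 and 264 CPM labelled KO against 419.8 and 363 CPM labelled WT, nearly all of it Ighm. Without Ighm the sum was 13.8 and 7.27 CPM labelled KO and 13.7 and 18.5 CPM labelled WT. Markers of erythroid cells and platelets summed to 1.65 and 2.28 CPM labelled KO against 3.30 and 6.06 CPM labelled WT, with Alas2 at 0. Labelled WT replicate 2 was the highest library in each of the 6 with a count, of which 3 passed the filter on low counts. Markers of dendritic cells other than Bst2 summed to 51.7 and 41.8 CPM labelled KO against 59.5 and 59.5 CPM labelled WT, with Cd209a at 0. Markers of plasmacytoid dendritic cells, a main source of type I interferon, summed to 28.9 and 39.2 CPM labelled KO against 58.2 and 45.6 CPM labelled WT without Irf8, which activated T cells also express. These sums did not overlap and were on the side of most members, while the list gene by gene was not. With Irf8, 5 of its 7 markers were tested, and 2 had a negative log2 fold change and 3 a positive one. Their median was 0.0063, and 1 lay lower in the libraries labelled KO without overlap, against 23.3% of all genes tested. Much of them was Runx2, which T cells also express, with 15.2 and 24.9 CPM labelled KO against 25.4 and 35.8 CPM labelled WT. Siglech, a defining marker of these cells, had 1 and 1 counts labelled KO against 0 and 0 labelled WT. Of 5 markers of CD4 and regulatory T cells 4 lay higher in the libraries labelled KO and 1 lower. Il2ra, which activated CD8+ T cells also make, was the 1 called, at 983 and 937 CPM labelled KO against 523 and 508 CPM labelled WT (edgeR adjusted p = 0.0488). The other 4 summed to 22.6 and 15.02 CPM labelled KO and 14.8 and 23.2 CPM labelled WT. Markers of NK cells other than Eomes summed to 4.59 and 2.77 CPM labelled KO and 2.00 and 5.77 CPM labelled WT. The part of these cells in the levels of the members was not tested. In bulk RNA, fewer cells of a type and less RNA per cell cannot be told apart.

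Genes that carry the interferon signal to these targets stood in the same direction in part. Of 7 receptor and kinase genes 6 were negative, 5 lay under labelled WT without overlap, and the median log2 fold change was −0.36. Among all genes tested 23.3% lay under without overlap. DESeq2 called 1 lower and 0 higher of the 7. The lowest p of them was that of Ifngr1, a chain of the interferon gamma receptor, with 72.6 and 64.7 CPM labelled KO against 133 and 122 CPM labelled WT, 1.86-fold lower (edgeR adjusted p = 0.0502). Ifnar1 had 61.9 and 70.3 CPM labelled KO against 106 and 89.7 CPM labelled WT, and Ifnar2 had 46.4 and 41.6 CPM labelled KO against 61.2 and 64.6 CPM labelled WT. Their edgeR adjusted p values were 0.186 and 0.218. The 3 genes listed for ISGF3 and the interferon STAT factors were all negative, with a median of −0.29. Of these 2 lay under labelled WT without overlap, and 1 had an unadjusted p under 0.05 by edgeR. Irf9 had the lowest log2 fold change of the 3, with 28.9 and 31.6 CPM labelled KO against 46.4 and 42.1 CPM labelled WT. It was 1.46-fold lower (edgeR adjusted p = 0.229).

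The interferons themselves were little counted. Of 20 interferon genes 6 had a count, and those other than Ifng had at most 4 counts in a library. Ifng, the interferon that activated CD8+ T cells make, had 93.5 and 161 CPM labelled KO and 65.8 and 93.8 CPM labelled WT, which overlapped (log2 fold change 0.68, SE 0.27; edgeR adjusted p = 0.374). Of 13 tested genes that induce interferon, 9 were negative and 2, or 15.4%, lay lower in both libraries labelled KO, with a median of −0.13. Among all genes tested 51.9% were negative and 23.3% lay lower without overlap. At an unadjusted p under 0.05 by edgeR 0 of the 13 were lower and 0 higher. Of 8 negative regulators of interferon signalling 6 had a negative log2 fold change and 2 a positive one, with a median of −0.16. Before adjustment 2 had a p under 0.05 by edgeR, both lower in the libraries labelled KO, against 7.23% of all genes tested. Socs1, an inhibitor of the JAK kinases, went the other way. It had 80.6 and 57.2 CPM labelled KO against 43.9 and 56.0 CPM labelled WT.

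A further 55 antiviral interferon targets outside the list were counted in the same fit, of which 47 were tested. Of these 37 were negative, 26 lay lower in both libraries labelled KO and 2 higher, and the median log2 fold change was −0.32. The shares over all genes tested were 51.9%, 23.3% and 21.5%. Before adjustment 12 had a p under 0.05 by edgeR, all with lower levels in the libraries labelled KO, against 7.23% of all genes tested. None passed over all genes by edgeR, while DESeq2 called 4 lower and 0 higher, against 1.37% and 0.665% of all genes. The 3 with the lowest p were Shisa5, Apobec3 and Sp140, 2.45-, 2.08- and 1.75-fold lower in the libraries labelled KO, with edgeR adjusted p values of 0.0526, 0.0702 and 0.124. Apobec3, a cytidine deaminase that restricts retroviruses, had 112 and 122 CPM labelled KO against 280.2 and 206 CPM labelled WT. Sp140, a relative of Sp100, had 22.9 and 27.5 CPM labelled KO against 42.9 and 45.3 CPM labelled WT.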

How the data were processed

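RNA sequencing counts per gene were analysed from 4 libraries of activated CD8+ T cells, 2 labelled PP2Cm KO and 2 labelled WT. Per the labels' protocols, the libraries are stranded and come from purified mRNA. Per the file headers, the authors deposited raw counts per gene, which are whole numbers. FPKM stand beside them, also deposited by the authors, and count over FPKM gave 1 gene length in every library to within 0.00173% over 10504 genes. Kallisto and GRCm38 are named in the submitters' processing notes, with no version. No source used here gives the counter, strand setting or filters. Columns were joined to samples through the description codes, and 8 other columns of values were not used.

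Genes were filtered by filterByExpr (minimum count 10), which kept 13528. After TMM scaling they were tested two-sided in edgeR 4.0.16 under R 4.3.3 by the quasi-likelihood method, with Benjamini-Hochberg adjustment over all genes tested and a threshold of 0.05. The standard error is the log2 fold change over the square root of F. The biological coefficient of variation was 15.9%. DESeq2 1.42.0, RLE scaling, no low-count filter, the replicate number as a block, summed paralogues and leaving out each library were alternatives. In 2 against 2 libraries the smallest two-sided exact permutation p is 0.333, so each adjusted p depends on a spread that edgeR shares between genes, and it measures the spread among these samples. Overlaps and 31-base words came from GENCODE M21 (GRCm38), at whose coordinates all 40 members lay. Members, gene lists and tests were chosen with earlier results of these data known. All members are accounted for, and those with a mean of at least 1 CPM were described by library. Outside the list the rule named Ppm1k, copies of members and the 3 genes of lowest p in each pathway list, and some of the last are not reported here.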

Additional observations from a re-analysis of the deposited data

How the results depend on the processing

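The direction of the list held under all alternatives, while the number of calls did not. The number of genes called was 276 by DESeq2, 146 with no low-count filter, 123 with the replicate block and 8 to 304 as each library was left out, against 28. Members called were 6, 3 and 2 under the first 3 and 0 to 6 as each library was left out, against 0, and every one of them was lower in the libraries labelled KO. Members lower at an unadjusted p under 0.05 numbered 13 to 22 as libraries were left out, against 24, and members higher numbered 0 to 3, and 1 by DESeq2 and with the replicate block, against 2. The median log2 fold change of the members ran from −0.62 to −0.48 as libraries were left out, against −0.53. In such a fit a label has 1 library, which is assumed to vary as the intact pair does. The lowest count of members, 13, came without labelled KO replicate 1, and 15 came without labelled WT replicate 2. Phf11b ran from −1.66 to −1.33 as libraries were left out, with an edgeR adjusted p between 0.00691 and 0.154, the highest without labelled KO replicate 2.

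Of 39 members tested 33 kept their sign in every alternative. The 6 that did not have labels that overlap: Ifit3 reached −0.24 to 0.25, Oasl2 −0.12 to 0.56, Trim25 −0.15 to 0.031, Trim21 −0.55 to 0.49, Bst2 −0.087 to 0.13 and Adar −0.022 to 0.34 as libraries were left out, and Trim21 was −0.011 with the replicate block. The deviations of same-numbered libraries from their label means correlated at −0.18 across genes. With 2 pairs this value cannot show whether the numbers pair the libraries. A crossed pairing, added after the data had been seen, called 12 genes and 0 members. Depth limits Rsad2, Mx2, Oas2, Oasl1, Isg20, Cmpk2, Mx1 and Ifit3b, each with under 25 counts in at least 1 library.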
